A study of Mus musculus with 12 samples.

Results

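The step from the NGO to the GO stage was described in mouse oocytes from which Rnaseh1 was deleted. These oocytes are named KO in the sample labels and Rnaseh1 oo-/- in the table. The labels leave NGO, GO and FGO unexplained; the usual reading of these stage names is oocytes before growth, during growth and at full size. Genes were taken where the mean over the 6 columns of the table was at least 1 FPKM, a fragment count scaled to transcript length and library size. This kept 10110 of 25162 genes, and a gene can pass through its GO or FGO value alone. The counterpart was the control, named WT and headed Rnaseh1 fl/fl, in which the gene is flanked by recombination sites but intact. The labels list 12 samples, 2 for each genotype and stage, each of 10 oocytes lysed together with 100 pg of ERCC spike-in RNA. The table holds 1 column for each genotype and stage and does not say whether that column is a mean, a pool or 1 of the samples. No replicate error and no p-value can therefore be given for any value. No source used here states the Cre line that made the deletion, the deleted exons, or the strain and age of the mice.

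Oocytes rest in primordial follicles until some enter growth, when they enlarge and accumulate RNA and protein that the egg and early embryo will use. During growth the oocyte builds its zona pellucida, an extracellular egg coat, and lays down the subcortical maternal complex, a protein lattice under the membrane that the embryo needs for its first divisions. RNase H1 cuts the RNA strand of RNA-DNA hybrids, in the nucleus at R-loops and in mitochondria during DNA replication.

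The markers of the labelled cell type were present. All 10 of 10 oocyte markers, among them Ddx4, Dazl, Gdf9, Nobox and Zp3, were at 1 FPKM or more in both KO columns, with a sum of 5304 FPKM at NGO and 10678 at GO. Of 16 granulosa cell markers, 1 was at 1 FPKM or more at NGO and 2 at GO. The sum of the 16 was 5.54 and 14.3 FPKM in KO, and 3.16 and 17.3 in WT. The defining granulosa genes Amh (0.457 and 0.139 FPKM in KO) and Foxl2 (0.103 and 0.110) were near 0 at both stages, while most of the GO sum was Esr2 at 9.47 FPKM. Single markers went both ways, since 9 of the 16 were lower in KO GO than in KO NGO (6 in WT), among them Inha (1.31 and 0.260) and Gja1 (0.743 and 0.156). Of all 10110 genes compared, 207 were lower at GO in KO and 317 in WT, but most of these markers were under 1 FPKM. Of 11 theca and stroma markers 0 reached 1 FPKM in either KO column, the sum was 1.83 and 1.03 FPKM, and 6 were lower at GO (8 in WT). Of 8 immune markers 1 was at 1 FPKM or more in KO NGO and 2 in KO GO. These were C1qb, at 1.53 and 12.3 FPKM in KO, and Cd68, at 0.371 and 1.34, while Ptprc, Tyrobp and Lyz2 were listed at 0. Of 10 endothelial and blood markers 0 reached that level in KO NGO and 2 in KO GO, Pecam1 (0.312 and 5.24 FPKM) and Tek (0.0963 and 1.23). The 4 hemoglobin genes were listed at 0 in KO, while Hba-a1 was at 2.11 FPKM in WT NGO. In WT the same pattern held for Esr2 (0.744 and 8.28 FPKM), C1qb (2.84 and 24.7) and Pecam1 (0.501 and 5.82). Fewer cells of a type and less RNA per cell cannot be told apart in such pools.

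Rnaseh1 itself, at chr12:28649601-28659592 in RefSeq on GRCm38.p6, checks the labels. The KO columns listed it at 0.931 FPKM at NGO and 3.10 at GO, and the WT columns at 8.61 and 27.8. Both KO values were far below both WT values. Its ratio of GO to NGO was nonetheless alike in both genotypes, 3.33 in KO and 3.23 in WT. Which exons the remaining KO reads cover cannot be read from a value per gene.

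As deposited, nearly every gene was listed higher in KO GO than in KO NGO. The KO values summed to 132093 FPKM at NGO and to 355744 at GO, a ratio of 2.69. The WT sums were 156837 and 384421, a ratio of 2.45. Of the genes compared, 9903 (98%) had the higher KO value at GO and 207 at NGO. On log2(FPKM + 1), the scale of all differences below, 5822 genes (57.6% of those compared) were at least 2-fold higher at GO and 9 (0.089%) at least 2-fold lower, with a median difference of 1.10. In WT the counts were 5540 (54.8%) and 13 (0.129%), with a median of 1.06. Genes at 1 FPKM or more numbered 8168 at NGO and 9931 at GO in KO, with 1824 crossing that level upward and 61 downward. At a wider margin 157 genes were under 1 FPKM in KO NGO and at 5 or more in KO GO, and 0 the reverse. The plot of the 2 KO columns shows this shift as a cloud above the line of equal values. What the sum says of the RNA content of 1 oocyte is unknown, since no source used here gives the authors' spike-in formula.

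**Figure D1:**
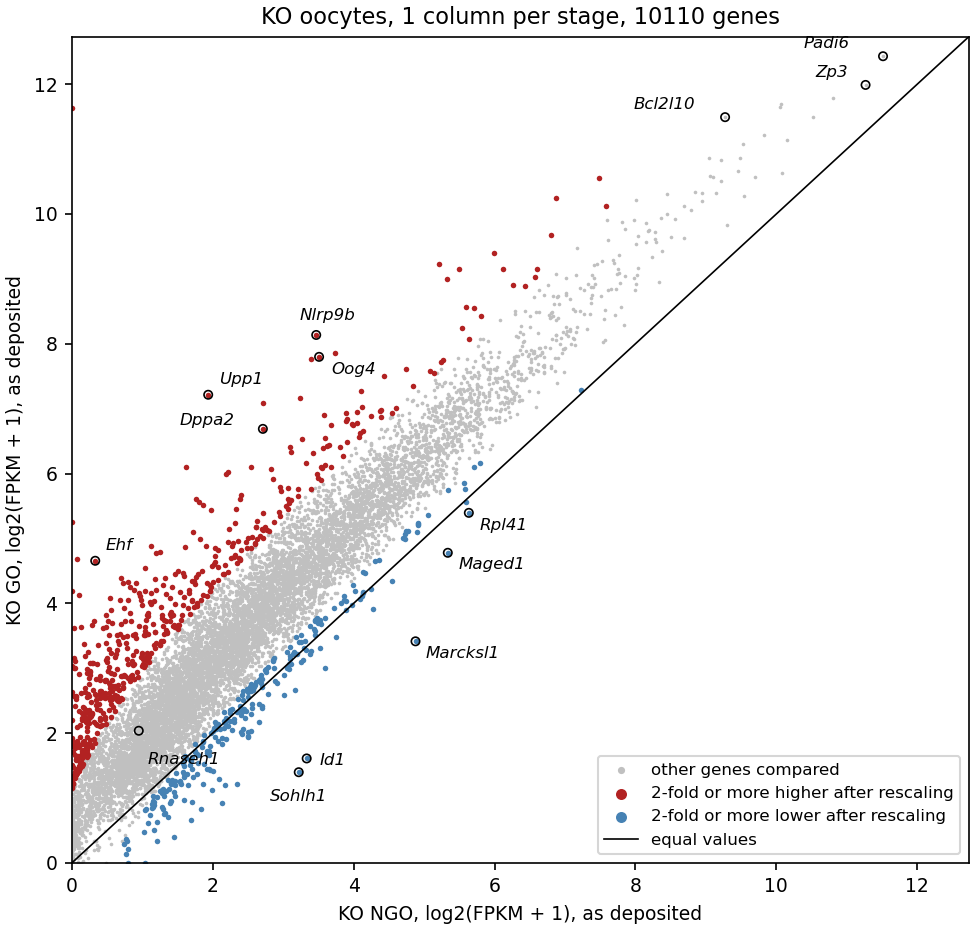
Each point is 1 of the 10110 genes, with the KO NGO value on the x axis and the KO GO value on the y axis, both log2(FPKM + 1) as deposited. Most points lie above the line of equal values, while Sohlh1, Id1, Marcksl1, Maged1 and Rpl41 lie below it; the 543 red and 262 blue genes are at least 2-fold higher and lower after rescaling.

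A second scale sets that common shift aside. Each of the 6 columns was divided by a factor, the median over genes of its ratio to the geometric mean of the columns. The factor was 0.453 for KO NGO and 1.22 for KO GO, and 0.514 and 1.29 for WT. The ratio of the 2 KO factors was 2.70, close to the ratio of the sums. Differences on this rescaled scale are relative to the median gene, whose KO difference is -0.02. After rescaling, 543 genes (5.37% of those compared) were at least 2-fold higher in KO GO and 262 (2.59%) at least 2-fold lower. Of the 262, 161 were also listed lower as deposited and the other 101 were higher as deposited, so their direction depends on the scale. All differences named below with 1 value are rescaled ones. Dividing a column by a factor keeps the order of FPKM ratios. A list's place against the median gene can therefore differ between the scales only through the 1 added to each value (the pseudocount). Counts within lists below stand beside 5.37% higher and 2.59% lower over all genes after rescaling, and 57.6% and 0.089% as deposited. Level and filter bear on these counts. Of 1991 genes under 1 FPKM in KO NGO 291 were at least 2-fold higher and 6 lower, with a median of 0.25, and of 162 genes at 100 FPKM or more 4 were higher and 1 lower, with a median of -0.15. A gene under 1 FPKM in KO NGO passed the filter only through other columns, where it was higher, so the excess of higher genes in that class follows in part from the selection and is no finding.

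The most abundant RNAs of KO NGO oocytes encoded the maternal lattice and the egg coat, and each had a higher deposited value at GO. Padi6, a component of the cytoplasmic lattices, led both columns with 2925 FPKM at NGO and 5524 at GO. The zona pellucida gene Zp3 followed at 2463 and 4065 FPKM, and Zp2 at 1782 and 3521. Tle6, whose product sits in the subcortical lattice, had 1461 and 2894, and Ldhb, a lactate dehydrogenase subunit, at 1132 and 2268 FPKM. Because these ratios were below the median gene's, the rescaled differences were negative, -0.52 for Padi6, -0.71 for Zp3, -0.45 for Zp2, -0.45 for Tle6 and -0.43 for Ldhb. For these genes the sign of the difference thus flips between scales. In WT the same genes were further below the median gene, at -1.17 for Padi6 (2875 and 3216 FPKM), -0.85 for Zp3 and -0.76 for Zp2. The elongation factor gene Eef1a1 (1083 and 1586 FPKM, difference -0.88) and the ubiquitin gene Ubb (828 and 1526, -0.55) completed this group. Eef1a1 has transcripts nearly identical to those of 7 other genes and Ldhb to those of 1, so their values are uncertain.

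Other abundant genes kept pace with the median gene or ran ahead of it. The NLR-family gene Nlrp14 was at 1073 FPKM in KO NGO and 3325 in KO GO (difference 0.20). Npm2, the histone chaperone nucleoplasmin, was at 910 and 2382 (-0.05). Zbed3, whose product belongs to the same lattice, had 1064 and 3226 FPKM in KO and at 1388 and 1892 in WT. Its difference was 0.17 in KO and -0.88 in WT, which makes the KO step 1.05 larger. Bcl2l10, an anti-apoptotic Bcl2 relative that oocytes express strongly, was at 617 and 2880 FPKM in KO (0.79) and at 1137 and 4633 in WT (0.70). The 10 most abundant genes made up 11.1% of the KO sum at NGO and 9.35% at GO.

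Rn45s, the precursor of ribosomal RNA, was listed at 0 in KO NGO and at 3173 FPKM in KO GO, where it took 0.892% of the column. WT listed it at 0 at both stages. The FGO columns listed it at 4820 FPKM in WT and 3963 in KO. A 0 for this RNA, which poly(A) selection captures poorly, may be an estimate that failed, and no fold is named for it. It remains in the counts of higher genes (5822 as deposited and 543 after rescaling) and of genes with a larger KO step than WT step. Without Rn45s the ratio of the KO sums was 2.67.

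Provisional names (predicted genes, clones and expressed sequences) aside, the largest rescaled difference among genes above 0 in both KO columns and at 5 FPKM or more in KO GO was that of Upp1, uridine phosphorylase, which splits uridine into uracil and ribose phosphate. The KO columns listed it at 2.82 FPKM at NGO and 147 at GO, a difference of 4.07. WT listed it at 7.74 and 222 (3.43). Ehf, an ETS-family transcription factor, was at 0.258 and 24.2 FPKM in KO (3.73) and at 0.820 and 42.5 in WT (3.71). The 15 genes of largest difference under these limits further held Clvs2 (0.0165 and 11.3 FPKM in KO), Mbd3l2, a relative of the methyl-CpG protein MBD3 (0.0967 and 11.4), and the secreted ligand Bmp5 (0.213 and 11.6). Gipc2 (0.0256 and 7.95), Ccdc3 (0.657 and 18.8) and S100a16 (0.0309 and 7.65) were also among them. For S100a16, a small calcium-binding protein, WT listed 0.301 and 1.19 FPKM, so the KO GO value was the highest of the 4. Rpl7a (0.621 and 19.9) is named by the same rule, but 31 other genes hold transcripts nearly identical to its own and the value is uncertain. The plot of 12 genes shows several of these values in all 4 columns.

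**Figure D2:**
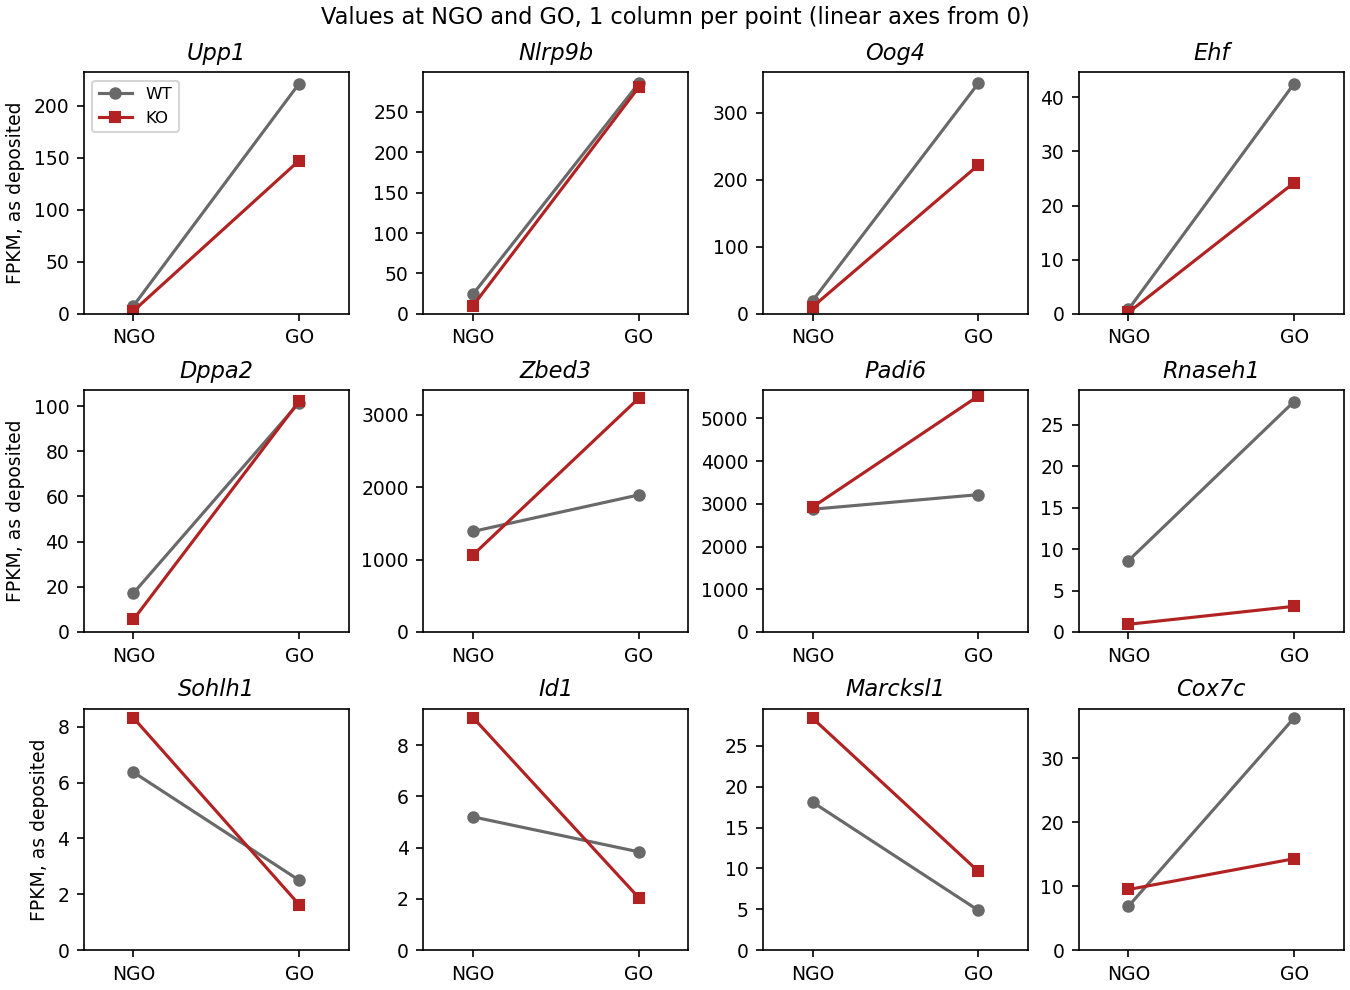
Deposited FPKM of 12 genes on linear axes from 0, at NGO and GO in WT (grey circles) and KO (red squares), with 1 column per point and lines joining the stages of a genotype. Upp1, Nlrp9b, Oog4, Ehf and Dppa2 were low at NGO and high at GO in both genotypes, Sohlh1, Id1 and Marcksl1 were lower at GO in both, and Cox7c was 14.3 in KO GO against 36.3 in WT GO.

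The oocyte NLR family, cytoplasmic proteins with leucine-rich repeats that are expressed mainly in oocytes, was the list with the highest median. All 9 of its compared members were at least 2-fold higher in KO GO as deposited (57.6% of all genes), with a list median of 2.46 against 1.10 over all genes. After rescaling 5 of 9 were at least 2-fold higher and 0 lower (5.37% and 2.59% of all genes). The rescaled median was 1.08 (-0.02 over all genes). Nlrp9b was at 10.1 FPKM in KO NGO and 280 in KO GO, a difference of 3.31. In WT it was at 24.4 and 285 (2.19). The GO values were thus close and the NGO value was lower in KO. Nlrp9c was at 5.52 and 134 FPKM in KO (3.07) and at 10.8 and 188 in WT (2.74). Nlrp9a was at 11.3 and 85.0 (1.44), Nlrp4e at 6.68 and 41.4 (1.14) and Nlrp4a at 20 and 116 FPKM in KO (1.08). Nlrp4c (0.09), Nlrp4f (0.18) and Nlrp14 (0.20) were near the median gene, and Nlrp4b was at 42.3 and 182 FPKM (0.67). In WT the list median was 0.64, and the KO step was below the WT step for 1 of the 9, Nlrp9a (52.2% of all genes compared). Nlrp4e has transcripts nearly identical to those of 5 other genes.

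The duplicated oocyte families, the Oog genes of the PRAME family, the Oas1 paralogues and a group of F-box genes of the Fbxw family, were higher to a similar extent. All 24 compared members were at least 2-fold higher as deposited (57.6% of all genes), with a median of 2.21. After rescaling 11 were higher and 0 lower (5.37% and 2.59% of all genes), with a median of 0.81 (0.73 in WT). Oog4 was at 10.4 FPKM in KO NGO and 222 in KO GO (2.93), and Oog3 at 12.3 and 231 (2.75). Both differences were close to the WT ones, 2.77 and 2.64. Among the F-box genes, Fbxw14 was at 178 and 1509 FPKM in KO (1.65) and Fbxw28 at 116 and 1212 (1.95). Fbxw20 was at 96.4 and 568 FPKM in KO (1.12) and at 168 and 684 in WT (0.70). Fbxw19 (10.9 and 119 in KO, 1.97) was the F-box gene of largest difference. Fbxw15, Fbxw24 and Fbxw27 lay within 0.06 of zero on the rescaled scale, at -0.00, 0.06 and 0.00. Of the Oas1 genes, homologues of interferon-induced oligoadenylate synthetase, Oas1e (546 and 1526 FPKM, 0.05) and Oas1c (167 and 469, 0.05) were near the median gene, while Oas1f (0.0710 and 2.45, 1.38) was at least 2-fold higher. Oog1 (9.54 and 216 FPKM in KO, 0.0670 and 148 in WT) and Oog2 (0.843 and 17.5 in KO) have nearly identical copies and their values are uncertain.

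Runs of neighbouring genes held several of these. Genes at least 2-fold higher after rescaling had another such gene start within 200 kb in 20.6% of cases, against 13.7% of all genes compared. For genes at least 2-fold lower the shares were 19.1% and 11.5%. On chromosome 4, all 8 of 8 compared genes of chr4:143696487-144213017, among them Oog3, Oog2 and Pramef17, were higher, and 6 of the 8 have nearly identical copies elsewhere. On chromosome 9, all 6 of 6 genes of chr9:109217432-109495863, the genes Fbxw20, Fbxw14, Fbxw28, Fbxw22, Fbxw16 and Fbxw19, were higher, 2 of them with nearly identical copies. On chromosome 14, 5 of 6 genes of chr14:25941559-26235744, the homeobox genes Cphx1, Cphx2, Cphx3, Duxbl1 and Duxbl2, were higher, and all 5 are nearly identical to others. In all, 9.58% of the 543 higher genes and 7.25% of the 262 lower genes had such a copy. Copies were not sought for every gene compared, so no share over all genes can be set beside these.

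Because neighbours of the first pair of runs were higher together, the promoters of Oog3, of its relative Oog4 (which lies outside the run), and of Fbxw14 and Fbxw20 are shown, from 250 bases before to 50 after the RefSeq start on GRCm38.p6. They are written 5′ to 3′ on the gene's strand, with capitals at every match, on either strand, to CANNTG (the E-box, the core that basic helix-loop-helix factors such as FIGLA and SOHLH1 bind), TAATTG (bound by the oocyte homeobox factor NOBOX) and TATAAA (the TATA box). The windows lie at chr4:144162602-144162901 (Oog3), chr4:143450275-143450574 (Oog4), chr9:109287627-109287926 (Fbxw14) and chr9:109234705-109235004 (Fbxw20), all on the minus strand.
Oog3: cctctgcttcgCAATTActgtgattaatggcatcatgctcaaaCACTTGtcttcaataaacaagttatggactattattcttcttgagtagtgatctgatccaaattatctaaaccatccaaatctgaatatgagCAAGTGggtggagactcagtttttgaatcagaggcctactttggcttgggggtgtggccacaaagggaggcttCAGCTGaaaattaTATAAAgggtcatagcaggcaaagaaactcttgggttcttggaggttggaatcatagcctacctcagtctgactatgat
Oog4: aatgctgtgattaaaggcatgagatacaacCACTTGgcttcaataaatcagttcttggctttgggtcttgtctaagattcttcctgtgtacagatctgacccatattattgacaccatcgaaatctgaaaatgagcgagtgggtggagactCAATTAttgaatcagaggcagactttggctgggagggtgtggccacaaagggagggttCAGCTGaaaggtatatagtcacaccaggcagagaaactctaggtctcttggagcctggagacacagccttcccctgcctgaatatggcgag
Fbxw14: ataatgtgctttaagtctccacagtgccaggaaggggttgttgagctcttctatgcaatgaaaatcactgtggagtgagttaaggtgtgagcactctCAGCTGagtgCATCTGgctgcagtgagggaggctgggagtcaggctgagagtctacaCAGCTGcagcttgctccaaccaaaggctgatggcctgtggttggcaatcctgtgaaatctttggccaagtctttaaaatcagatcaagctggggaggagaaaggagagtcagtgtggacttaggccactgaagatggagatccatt
Fbxw20: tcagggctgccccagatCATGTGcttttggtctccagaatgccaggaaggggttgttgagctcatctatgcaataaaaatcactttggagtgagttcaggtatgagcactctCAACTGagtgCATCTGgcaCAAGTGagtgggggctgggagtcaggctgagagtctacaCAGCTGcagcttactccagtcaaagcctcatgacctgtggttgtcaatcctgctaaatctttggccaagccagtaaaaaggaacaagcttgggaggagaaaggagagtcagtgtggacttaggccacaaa
The Oog3 and Oog4 windows were identical at 229 of 317 aligned positions (72.2%), and each held the E-box CAGCTG shortly before the start. Each also held 1 match to TAATTG, but at different places, far from the start in Oog3 and nearer to it in Oog4. Oog3 had 3 E-box matches and 1 TATA box match, and Oog4 had 2 and 0. The Fbxw14 and Fbxw20 windows were identical at 251 of 316 positions (79.4%), with 3 and 5 E-box matches and 0 matches to TAATTG. Over the windows of all 27025 genes of the RefSeq table, 72.1% held CANNTG, 8.15% TAATTG and 14.2% TATAAA. Over the 8169 windows of genes compared the shares were 63.1%, 5.15% and 6.93%. Only 412 of the 543 higher genes (75.9%) had a window, so motif shares over that set are void and none is given.

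Transcription factors of the oocyte went both ways. Of 19 compared, 5 were at least 2-fold higher in KO GO after rescaling and 2 lower (5.37% and 2.59% of all genes). The median was -0.21 (-0.06 in WT). As deposited 10 were higher and 1 lower (57.6% and 0.089% of all genes). Sohlh1 and Sohlh2, basic helix-loop-helix factors that are needed for primordial and primary follicles, were the 2 lower ones. Sohlh1 had the lowest rescaled difference of all genes compared, with 8.32 FPKM in KO NGO and 1.63 in KO GO (-1.82 as deposited, -3.05 rescaled). In WT it was at 6.37 and 2.51 (-2.19 rescaled), so KO was the higher column at NGO and the lower one at GO. Sohlh2 was at 11.0 and 7.02 FPKM in KO (-1.91) and at 9.24 and 3.87 in WT (-2.25). Figla, which drives the zona genes, was at 25.1 and 44.6 FPKM in KO (-0.59), below the median gene but higher as deposited. Nobox (65.2 and 222 FPKM, 0.33) and Lhx8 (59.9 and 186, 0.20), homeobox factors of early follicles, were above it. The higher ones were the oocyte homeobox genes Obox1, Obox2, Obox5, Obox7 and Cphx1, of which Obox5 (51.1 and 372 FPKM in KO, 1.42) alone has no nearly identical copy. For contrast with the families above, the windows of Sohlh1 (chr2:25847199-25847498, minus strand) and of Zp3 (chr5:135979855-135980154, plus strand), a known target of FIGLA, follow in the same notation.
Sohlh1: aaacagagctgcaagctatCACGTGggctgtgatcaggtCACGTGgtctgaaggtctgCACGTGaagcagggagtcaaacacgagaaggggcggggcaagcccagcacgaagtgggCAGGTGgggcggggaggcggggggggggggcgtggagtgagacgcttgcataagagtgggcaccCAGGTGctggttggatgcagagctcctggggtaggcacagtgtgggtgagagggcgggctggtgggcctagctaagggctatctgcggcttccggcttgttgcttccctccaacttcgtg
Zp3: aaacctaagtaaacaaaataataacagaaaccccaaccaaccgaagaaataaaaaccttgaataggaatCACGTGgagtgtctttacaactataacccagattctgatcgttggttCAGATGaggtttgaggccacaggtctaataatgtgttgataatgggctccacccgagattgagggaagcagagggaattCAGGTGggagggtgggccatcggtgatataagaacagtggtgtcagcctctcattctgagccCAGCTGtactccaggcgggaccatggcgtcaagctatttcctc
The Sohlh1 window held 5 E-box matches and the Zp3 window 4, and neither held a match to TAATTG or TATAAA. Figla encodes the factor known to bind the Zp3 E-box. Figla and Zp3 were both below the median gene in KO, at -0.59 and -0.71, and both were below it in WT too. As deposited, both genes were higher at GO than at NGO in both genotypes. Whether the Zp3 values depend on Figla was not tested.

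Genes listed lower at GO than at NGO even as deposited were few. In these columns 9 of 16 granulosa and 6 of 11 theca and stroma markers were lower at GO as well, against 207 of the 10110 genes compared. The part of other cells in the values below was not tested. Only 34 of the 207 were at 5 FPKM or more in KO NGO, and 116 of the 207 were also lower in WT GO than in WT NGO, where 317 genes were lower. Besides Sohlh1, the inhibitor of differentiation Id1, whose product pairs with and disables E-box binding factors, had 9.08 FPKM in KO NGO and 2.05 in KO GO (-1.72 as deposited, -2.98 rescaled). In WT it was at 5.2 and 3.84 (-1.48 rescaled). The KO step was thus 1.49 below the WT step. Marcksl1, an actin-linked substrate of protein kinase C, was at 28.4 and 9.66 FPKM in KO (-2.84) and at 18.1 and 4.88 in WT (-2.92). Maged1 was at 39.4 and 26.4 in KO (-1.96) and at 32.2 and 9.61 in WT (-2.92). All 15 named genes of largest negative difference were lower in KO GO on both scales. The others included Map7d2, which binds microtubules (7.96 and 5.37 FPKM), the extracellular matrix gene Fbln1 (5.28 and 3.50), Bco1 (10.5 and 8.95) and the ribonuclease inhibitor Rnh1 (9.38 and 8.34). Bid, a pro-apoptotic Bcl2 relative, was at 3.38 and 0.885 FPKM in KO (-2.29) and at 1.29 and 0.219 in WT (-1.58).

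The egg coat and oocyte signal genes were near the median gene after rescaling and further above it as deposited, with deposited medians of 1.62 and 1.55 against 1.10 over all genes. Relative to the median gene the rescaled lists were at 0.21 and 0.16, and with a pseudocount of 0.1 at 0.22 and 0.16. Of 11 egg coat and fertilisation genes 8 were at least 2-fold higher on deposited values (57.6% of all genes), and 1 higher and 1 lower after rescaling, with a median of 0.19 (0.32 in WT). Oosp3, a secreted protein gene, was at 13.8 and 121 FPKM in KO (1.67), and the tetraspanin Cd81 at 2.27 and 0.923 (-1.77). Cd9, the tetraspanin needed for sperm fusion, was at 134 and 412 FPKM (0.19), and the sperm receptor Izumo1r at 51.2 and 183 (0.40). Of 12 genes of oocyte signalling, 1 passed 2-fold after rescaling, Bmp15, at 94.1 and 519 FPKM in KO (1.03) and 135 and 631 in WT (0.89). Its partner ligand Gdf9 was at 716 and 1860 FPKM (-0.06). The receptor Kit, through which growth starts, was at 31.7 and 86.3 (0.01), and the gap junction gene Gja4 at 111 and 360 FPKM (0.26).

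Of 19 genes of the subcortical maternal complex and other maternal-effect genes, 14 were at least 2-fold higher on deposited values (57.6% of all genes, deposited medians 1.35 and 1.10), and 1 higher and 1 lower after rescaling (median -0.05, and -0.07 in WT). The higher one was Nlrp2, at 36.9 and 210 FPKM in KO (1.07), and the lower one Dppa3, which shields maternal DNA from demethylation, at 32.3 and 40.2 (-1.09), with 1 nearly identical gene. Nlrp5, the complex's founding member, was at 490 and 1274 FPKM in KO (-0.05) and at 430 and 518 in WT (-1.06). Its KO step was 1.004 above the WT one. Ooep, also of the complex, was at 631 and 909 (-0.91). The list's summed FPKM was 6.48% of the KO column at NGO and 5.41% at GO, and 5.99% and 3.87% of the WT columns.

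Early-embryo genes had a rescaled median of 1.01 in KO and 0.89 in WT. Relative to the median gene the KO value depended on the scale, at 2.15 with a pseudocount of 0.1 and 0.35 as deposited. Only 8 of the 19 members in the table were compared, some through later columns alone, and of these 5 were at least 2-fold higher after rescaling and 1, Dppa3, lower. Dppa2, a chromatin protein of early embryos, had 5.55 FPKM in KO NGO and 102 in KO GO (2.67), and 17.2 and 102 in WT (1.21). The deposited GO values were close and the NGO value was lower in KO. Its partner Dppa4 was at 0.465 and 3.76 FPKM in KO (1.01). Tcstv1 (2.38 and 47.8 FPKM in KO) and Tcstv3 (1.05 and 22.4), of a family known from the 2-cell embryo, have nearly identical copies, as does Zscan4d (0.0145 and 1.34).

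Stored-message and decay genes lay near the median gene after rescaling and further above it as deposited, with deposited medians of 1.31 and 1.47 against 1.10. With a pseudocount of 0.1 the rescaled lists were at 0.01 and 0.24 relative to the median gene. Of 20 genes of maternal mRNA storage 1 was at least 2-fold higher after rescaling and 0 lower (median -0.01). Pabpc1l, the poly(A)-binding protein of oocytes, was at 16.6 and 100 FPKM in KO (1.14), while Ybx2, which packages stored mRNA, was at 60.3 and 81.8 (-0.98). Of 25 genes of maternal mRNA decay 0 were higher and 1 lower (median 0.19). The lower one was Zfp36l2, which destabilises AU-rich messages, at 7.77 and 8.27 FPKM (-1.23). Btg4, the adaptor that later triggers decay of maternal mRNA, was at 347 and 1262 FPKM in KO (0.43) and at 475 and 2030 in WT (0.77).

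Cell cycle and spindle genes were likewise near the median gene after rescaling and further above it as deposited, with deposited medians of 1.52 and 1.40 against 1.10. With a pseudocount of 0.1 the rescaled lists were at 0.18 and 0.13 relative to the median gene. Of 28 genes of Cdk1, cyclins and meiotic arrest 2 were at least 2-fold higher after rescaling and 0 lower (median 0.15). Ccnb1, the cyclin that activates Cdk1, was at 55.2 and 344 FPKM in KO (1.2, with 3 nearly identical genes), and Ccnb3 at 0.220 and 3.96 (1.51). Of 31 spindle and anaphase genes 0 passed 2-fold in either direction after rescaling, and 27 were higher as deposited (57.6% of all genes). The kinase gene Plk1 was at 20.5 and 83.7 FPKM in KO (0.59) and at 19.3 and 41.5 in WT (-0.22). Of 25 meiotic prophase genes 0 were higher and 1 lower after rescaling (median -0.14, and 0.80 as deposited). That was Syce1, of the synaptonemal complex, at 3.83 and 3.14 FPKM in KO (-1.41). Sycp3, an axial protein of meiotic chromosomes, was at 42.3 and 56.6 FPKM in KO (-0.999, just short of 2-fold) and at 30 and 65.4 in WT (-0.20).

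The list of genes related to the deleted enzyme had a median near that of all genes on both scales. The 3 genes of RNase H2 within it lay below the median gene in both genotypes. Of 41 genes that encode RNases H or resolve R-loops, 26 were at least 2-fold higher on deposited values (57.6% of all genes) and 0 lower, with a deposited median of 1.15 against 1.10, and after rescaling 0 passed 2-fold in either direction (median -0.01, and -0.05 in WT). Rnaseh2a, Rnaseh2b and Rnaseh2c encode the subunits of RNase H2, the other cellular RNase H. Rnaseh2a was at 1.42 and 1.84 FPKM in KO (-0.72), Rnaseh2b at 4.46 and 8.74 (-0.41) and Rnaseh2c at 9.17 and 12.7 (-0.90). All 3 were higher at GO as deposited and below the median gene. In WT the 3 were below it too, at -0.40, -0.75 and -0.71. The topoisomerase gene Top1 was at 18.5 and 50.1 FPKM (0.00). Of 39 genes of double-strand break repair 30 were higher as deposited (57.6% of all genes), with a median of 1.34, and 0 passed 2-fold after rescaling (median 0.08). Of 16 genes of the p53 family and checkpoint 0 were higher and 1 lower after rescaling, the latter being Perp at 4.83 and 5.75 FPKM in KO (-1.03). Trp63, whose product guards the oocyte genome, was at 5.92 and 10.8 FPKM (-0.51). Mdm2, which marks p53 for degradation, had 16.6 and 73.7 in KO (0.70) and at 14.9 and 31.3 in WT (-0.24).

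DNA methylation and chromatin lists lay near the median gene after rescaling, with deposited medians of 0.92 and 1.06. Of 16 genes of DNA methylation and imprints 1 was at least 2-fold higher after rescaling and 0 lower (median -0.13). Dnmt3l, the cofactor of de novo methylation, was at 0.504 and 5.63 FPKM in KO (1.41) and at 0.792 and 6.79 in WT (1.3). Kdm1b, the demethylase needed for maternal imprints, was at 22.1 and 84.6 in KO (0.50) and at 19.2 and 31.6 in WT (-0.59). Its KO step was 1.09 above the WT step. Of 32 chromatin regulators 1 was higher and 2 lower (median -0.03). Sap30, of the Sin3 deacetylase complex, was at 4.28 and 50 FPKM in KO (2.0), Kdm5b at 1.77 and 1.04 (-1.40) and Ehmt2 at 3.52 and 3.46 (-1.2).

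Ribosomal protein and oxidative phosphorylation genes were the lists of lowest median after rescaling. As deposited their medians, 0.80 and 0.86, were also below the 1.10 of all genes, but the immediate early list (0.72) and the meiotic prophase list (0.80) were lower still or alike. Of 78 genes of cytosolic ribosomal proteins, 70 had a smaller difference than the median gene. As deposited 17 were at least 2-fold higher and 0 lower (57.6% and 0.089% of all genes), with a median of 0.80. After rescaling 1 was higher and 7 lower (5.37% and 2.59% of all genes), with a median of -0.53 in KO and -0.24 in WT. The KO step was below the WT step for 64 of the 78, against 52.2% of all genes compared. Rpl41 was at 48.7 FPKM in KO NGO and 41.0 in KO GO (-1.65), and at 69.8 and 102 in WT (-0.77). Rps18 was at 1.54 and 1.16 in KO (-1.17) and at 1.43 and 4.15 in WT (0.16). Both were listed lower at GO in KO and higher at GO in WT. The list's share of the column was 1.78% and 1.26% in KO and 1.89% and 1.57% in WT.

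Of 74 nuclear genes of oxidative phosphorylation, 70 lay below the median gene in KO. As deposited 27 were at least 2-fold higher and 0 lower (57.6% and 0.089% of all genes). After rescaling 0 were higher and 2 lower (5.37% and 2.59% of all genes), with a median of -0.53 in KO and -0.19 in WT. The KO step was below the WT step for 57 of 74 (52.2% of all genes), and by at least 2-fold for 7 (1.1% of all genes). The median relative to the median gene was -0.50 after rescaling and -0.24 as deposited. Cox7c, of cytochrome c oxidase, was at 9.49 and 14.3 FPKM in KO (-0.79) and at 6.86 and 36.3 in WT (1.02). Uqcrh, of complex III, was at 7.09 and 10.3 in KO (-0.82) and at 5.26 and 23.7 in WT (0.78). In each of these genes KO was the higher column at NGO and WT at GO. Uqcr10, also of complex III, was at 6.36 and 5.97 FPKM in KO (-1.36), and Cox6b1 at 2.87 and 2.47 (-1.28), the 2 lower members, both listed lower as deposited too. Mitochondrial ribosomal protein genes had a median of -0.19 over 75 genes, 0 of them past 2-fold after rescaling. Genes that maintain and transcribe mitochondrial DNA had 0.06 over 18, with Tfam, which packages that DNA, at 8.46 and 28.5 FPKM in KO (0.30).

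Transcript length moved with both lists. In GENCODE M21 the median longest transcript was 1076.5 nt for the ribosomal protein genes and 1093.5 nt for the oxidative phosphorylation genes, and 34 members of each were at most 1000 nt. Over all 506 genes with transcripts of at most 1000 nt the median rescaled difference was -0.28 in KO and -0.07 in WT. Without the members of both lists the 438 others had -0.17 and -0.04. The part of length in the medians of the lists was not tested. The plot of differences by length shows the shortest class lowest in KO.

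**Figure D3:**
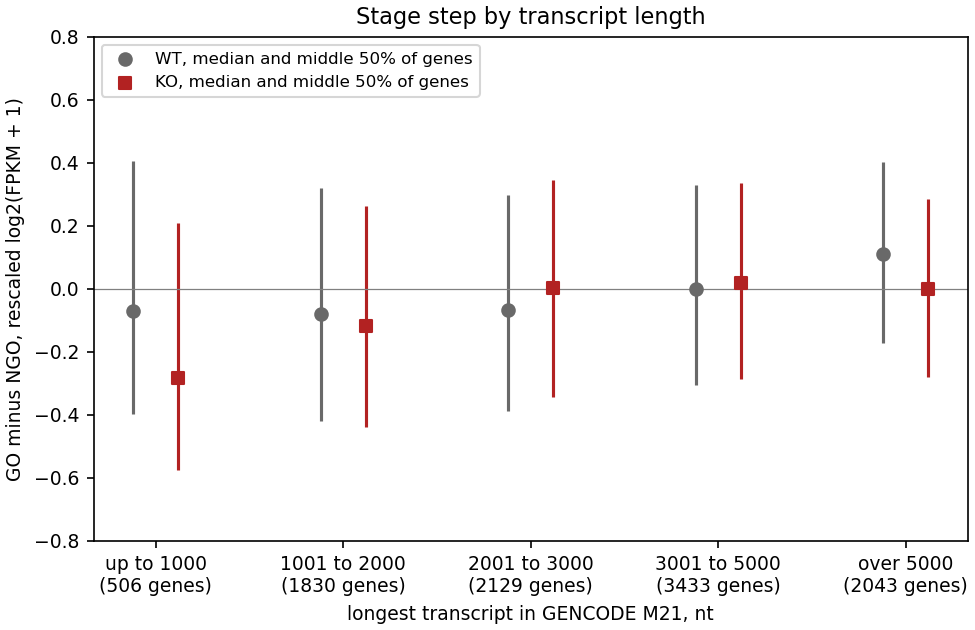
Median rescaled difference between GO and NGO on log2(FPKM + 1), with the middle 50% of genes as bars, in 5 classes of longest transcript length, for WT (grey circles) and KO (red squares). The KO median is -0.28 up to 1000 nt and -0.00 over 5000 nt, and the WT medians are -0.07 and 0.11.

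The growth signalling list had a median below that of all genes, though 9 of its 22 genes lay above the median gene and 13 below. Of 22 genes of PI3K, Foxo3 and mTOR signalling, the pathway that releases primordial follicles from arrest, 7 were at least 2-fold higher on deposited values (57.6% of all genes) and 0 lower. After rescaling 0 were higher and 3 lower, with a median of -0.29 in KO and -0.12 in WT, and the KO step was below the WT step for 18 of 22 (52.2% of all genes). The lower ones were Eif4ebp1, a translation repressor that mTOR inhibits (16.6 and 17.0 FPKM in KO), the kinase Akt2 (10.2 and 11.9) and Stk11 (5.38 and 6.16). None of these was lower as deposited. Foxo3, the factor that holds oocytes in arrest, was at 3.44 and 5.85 FPKM in KO (-0.57) and at 1.58 and 4.67 in WT (0.18).

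Metabolic and protein-handling lists had negative rescaled medians. Glycolysis and lactate genes had -0.30 in KO and -0.40 in WT over 16 (1 higher, Pfkp, and 1 lower, Ldha), pyruvate oxidation and the citric acid cycle -0.18 over 17, the proteasome -0.18 over 35 and translation initiation factors -0.13 over 44. As deposited the median of the glycolysis list (0.97) was also below that of all genes. Those of the citric acid cycle (1.17), the proteasome (1.17), initiation factors (1.22) and stress genes (1.13) were above 1.10. Their side of the median gene thus depends on the scale, through the 1 added to each value. With a pseudocount of 0.1 after rescaling they stayed below the median gene, at -0.15, -0.16, -0.11 and -0.14 relative to it. Pdhx, of the pyruvate dehydrogenase complex that the oocyte relies on, was at 3.41 and 20.9 FPKM in KO (1.08). Among stress and chaperone genes (median -0.15 over 21, 0 higher and 2 lower, Xbp1 and Asns), the chaperone Hsp90ab1 was at 228 and 313 FPKM (-0.97) and the stress factor Atf4 at 36.8 and 195 (0.96). Tubulins had a median of -0.03 in KO and -0.35 in WT over 14 genes, with the KO step below the WT step for 2. Nuclear pore genes had -0.00 and -0.18 over 24, with 7 below, against 52.2% of all genes. The plot of list medians sets all 36 lists side by side.

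**Figure D4:**
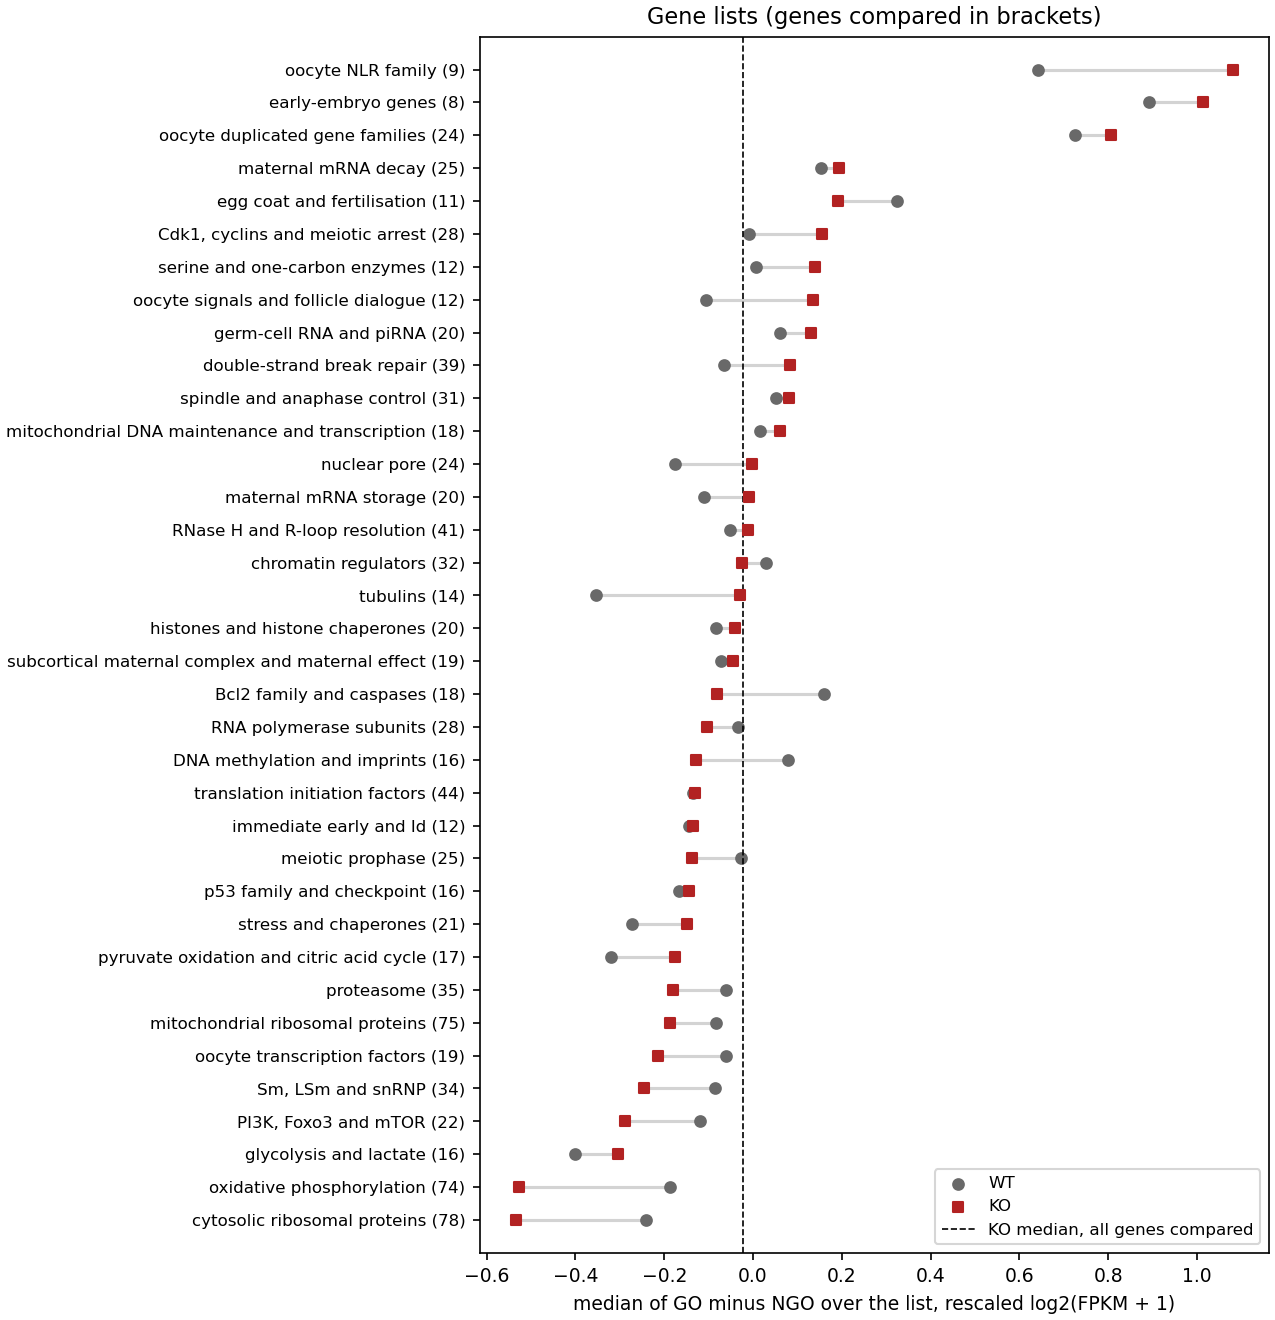
Median rescaled difference between GO and NGO on log2(FPKM + 1) for 36 gene lists, with the number of genes compared in brackets, for WT (grey circles) and KO (red squares) and a dashed line at the KO median of all genes. The NLR family (1.08), early-embryo genes (1.01) and duplicated oocyte families (0.81) lie at the top in KO, and the ribosomal protein and oxidative phosphorylation lists (both -0.53) at the bottom.

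Set beside WT, which shares no column with it, the KO step was similar for most genes. Across the 10110 genes Pearson's r between the rescaled steps was 0.777 and Spearman's rho 0.720, and r was 0.768 over the 3902 genes at 5 FPKM or more in all 4 columns. These are descriptions across genes, which are not independent replicates. Of the genes compared, 98.3% had steps within 2-fold of each other. Genes at least 2-fold higher at GO in both genotypes numbered 378, which is 69.6% of the 543 in KO and 61.7% of the 613 (6.06%) in WT. Genes lower in both numbered 146, which is 55.7% of the 262 in KO and 44.1% of the 331 (3.27%) in WT. The step was at least 2-fold larger in KO for 61 genes (0.603%) and at least 2-fold smaller for 111 (1.1%). With no replicate column, none of these gaps can be set against an error.

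**Figure D5:**
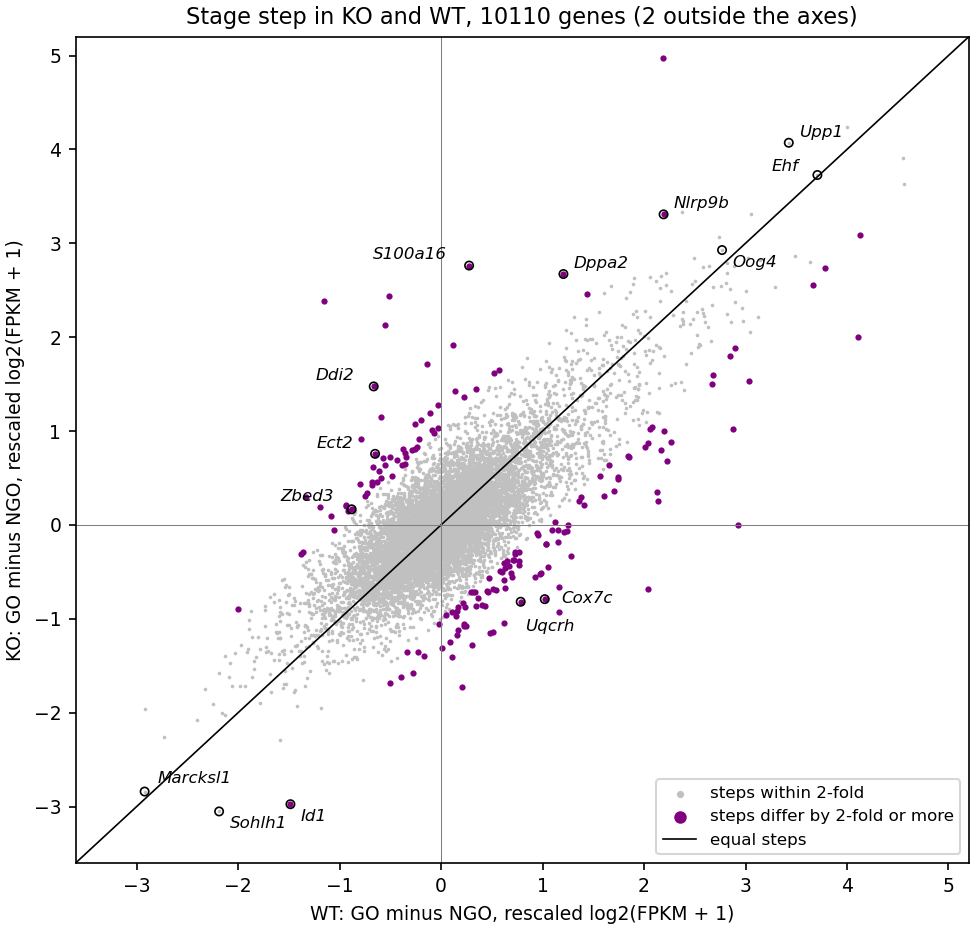
Rescaled difference between GO and NGO on log2(FPKM + 1) in WT (x axis) and KO (y axis), 1 point per gene, with 2 genes outside the axes. Points follow the line of equal steps, and the 172 purple genes, such as Ddi2, Ect2 and S100a16 above the line and Cox7c, Uqcrh and Id1 below it, differ by 2-fold or more.

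Among genes of larger KO step, Ddi2, a protease that activates the transcription factor NRF1, was at 3.66 and 29.7 FPKM in KO (1.47) and at 4.34 and 6.40 in WT (-0.66). Ect2, a RhoA exchange factor of dividing cells, had 7.11 and 33.3 in KO (0.76) and at 7.30 and 11.2 in WT (-0.65). In both genes the NGO columns were close and the GO columns apart. The phosphatase gene Dusp5 was at 0.989 and 6.12 in KO (0.92) and 1.67 and 1.89 in WT (-0.79). Ifitm10 was at 0.413 and 7.57 in KO, Ptp4a1 (with 1 nearly identical gene) at 2.93 and 18.0, and Pnrc1 at 5.13 and 35.3. The chromatin gene Hmga1 was at 7.88 and 26.5 FPKM in KO and at 11.9 and 11.1 in WT, with 1 nearly identical gene. Tgoln2 (1.97e-06 and 5.18 in KO, 0.626 and 8.39e-07 in WT) is the 1 gene called higher in KO and lower in WT, and both near-zero entries can be failed estimates.

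Among genes of smaller KO step, respiratory genes recurred. Besides Cox7c (-1.81 against the WT step) and Uqcrh (-1.60), there were Uqcr11 of complex III (7.16 and 13.9 FPKM in KO, 5.69 and 31.0 in WT) and Atp5k of ATP synthase (15.6 and 22.6 in KO, 12.3 and 42.3 in WT). These were among the 10 named genes of smallest KO step relative to WT, along with Id1. Phgdh, the first enzyme of serine synthesis, was at 6.35 and 22.4 in KO and 2.50 and 23.3 in WT, and 7 other genes have transcripts nearly identical to its own. Oog1, Cphx1 and Eif3j1 also belonged to the 10, with WT NGO values of 0.0670, 0.0241 and 0.0235 FPKM. Of the 111 genes of smaller KO step 28 had transcripts of at most 1000 nt, and of the 61 of larger KO step 3, where 5.09% of all genes with a known length did.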

How the data were processed

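Polyadenylated RNA was amplified with Smart-seq2, libraries were made from 500 pg of cDNA and sequenced as 150 bp pairs, as the labels' protocols state. The submitters' processing notes name mm10, Cufflinks 2.2.1, HISAT2 2.2.1 and Trim Galore 0.6.7. The authors deposited FPKM that they had adjusted to the ERCC spike-in, going by the name of the file. No source used here gives the formula or the annotation, and depth is unknown. Of 25912 lines, 2 with spreadsheet error marks were left out and, for 333 symbols on several lines, the line of largest mean was kept.

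Differences were taken on log2(FPKM + 1), with the pseudocount of 1 understating low genes, and counted at 2-fold or more, as deposited and after median-ratio rescaling over genes above 0 in all 6 columns. With 1 column per group the tests foreseen for separate samples could not be run. The genes and lists were chosen with earlier results of these data known. Named were Rnaseh1, 15 genes per direction of the KO step, the 10 most abundant in each KO column, 10 per direction of the KO step against the WT step (each at 5 FPKM or more in the higher KO column, above 0 in the columns compared and without predicted-gene, clone or expressed-sequence names), and per list the 4 largest and fixed core members. Other list members, genes of chromosomal runs and Fbxw genes were chosen after their values were seen. Some genes that the rule names are not reported here.

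Longest transcripts came from GENCODE M21 (98.3% of genes), coordinates (99.9%) and promoters (8169 of 10110 genes) from RefSeq GRCm38.p6. Nearly identical means a blastn 2.17.0 match of at least 95% over at least 50% of the longest transcript. Matches were sought only for genes called at 2-fold in the rescaled KO step or against the WT step, list members and abundant genes. The code for factors and 2-fold counts was checked on simulated data. Software was Python 3.11.15 with numpy 2.4.6, pandas 2.3.3 and matplotlib 3.10.9. Alternatives were other pseudocounts, filters, scalings and gene subsets.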

Additional observations from a re-analysis of the deposited data

Results flagged for a closer look

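In 10 genes the KO and WT steps from NGO to GO went opposite ways relative to the median gene, each by at least 0.5 on the rescaled log2(FPKM + 1) scale, with 5 FPKM or more in a KO column and at least 0.1 in all 4 columns. With 1 column per group the difference between genotypes was not tested. The KO step was above and the WT step below the median gene for 7: Ddi2 (KO step minus WT step 2.14), Dusp5 (1.70), Ect2 (1.41), Ndufa4l2 (1.29), Exoc6 (1.28), Prc1 (1.19) and Shoc2 (1.19). Prc1, which bundles microtubules of the central spindle, was at 26.6 and 112 FPKM in KO and at 34.9 and 59.1 in WT. Exoc6, of the exocyst, was at 4.16 and 17.8 in KO and at 5.62 and 8.42 in WT. Shoc2, a scaffold of Ras signalling, was at 5.46 and 22.6 in KO and at 7.43 and 11.7 in WT.

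The KO step was below and the WT step above the median gene for 3: Cox7c (-1.81), Uqcrh (-1.60) and Rnf19b (-1.20). Rnf19b, a ubiquitin ligase gene, was at 7.36 and 12.8 FPKM in KO and at 8.28 and 32.6 in WT. As deposited, all 10 genes were listed higher at GO than at NGO in both genotypes, so the opposite signs are those of the rescaled values.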

How the results depend on the processing

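No paired analysis was possible because the table holds 1 column per genotype and stage, so neither the replicate block nor leaving out a replicate was run. With a pseudocount of 0.1 the counts of 2-fold genes were larger: 28 lower as deposited, 985 higher and 527 lower after rescaling, and 248 and 392 with the larger and smaller KO step than WT step. With a mean of at least 5 FPKM the counts were smaller: 2 genes lower as deposited, 117 lower after rescaling and 63 of smaller KO step than WT step. With values as deposited the KO step was larger than the WT step for 101 genes, and 9 of 36 lists, in place of 3, had a median at least 0.25 above the median gene, the 6 added being egg coat, oocyte signals, germ-cell RNA, Cdk1 and cyclins, mRNA decay and spindle. The other 44 recomputed counts were within 1.5 times the reported ones, including those with equal column totals. They also included those over transcripts above 1000 nt or without nearly identical genes, chosen after the data were seen. Copies were sought only in genes called at 2-fold, listed or abundant, so the last subset was not an even filter. Lists at least 0.25 below the median gene numbered 4 after rescaling and 3 as deposited, but the members differed. The ribosomal protein list stayed (-0.30 as deposited), and immediate early (-0.38) and meiotic prophase (-0.31) joined. Oxidative phosphorylation and PI3K (both -0.24) and glycolysis (-0.13) left. All 30 named genes of largest KO step kept their direction and stayed at least 2-fold with the pseudocount of 0.1, equal totals and factors of the KO columns alone. As deposited 12 of the 15 lower ones were lower by less than 2-fold, and for 1 of the 20 genes named for the KO step against the WT step the gap was then under 2-fold. The early-embryo median relative to the median gene was 2.15 with the pseudocount of 0.1 and 0.35 as deposited. Without replicates and depth, no error can be set beside any value.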
